A study of Homo sapiens with 24 samples.

Results

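The nuclear genes of oxidative phosphorylation were taken as the gene symbols of the families NDUFA, NDUFB, NDUFC, NDUFS and NDUFV followed by a number, SDHA to SDHD, UQCR, COX4 to COX8 and ATP5, with an expected count of 10 or more in at least 3 libraries. Of 21831 genes in the tables, 91 symbols matched and 83 met the count rule. They comprised 36 genes of complex I, 4 of complex II, 8 of complex III, 14 of complex IV, 19 of complex V and 2 read-through loci, NDUFC2-KCTD14 and ATP5MF-PTCD1. NDUFA4, NDUFA4L2 and COX7A2L were counted with complex IV. The 8 symbols that failed were UQCRHL, UQCRBP1, COX6A2, COX6B2, COX7A1, COX7B2, COX8C and ATP5MGL. All 83 members also passed the filter on low counts that precedes the test, so none was lost.

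Oxidative phosphorylation is carried out by protein complexes of the inner mitochondrial membrane. Complex I oxidises NADH and complex II oxidises succinate to fumarate. Both pass electrons to ubiquinone, complex III hands them on to cytochrome c, and complex IV reduces oxygen. Complexes I, III and IV pump protons, and complex V, the ATP synthase, uses the gradient to make ATP. Most subunits are encoded in the nucleus, while a small set of core subunits comes from mitochondrial DNA. The mitochondrially encoded subunits were not analysed here.

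The study measured RNA in HBL-1 cells (HBL1 in the sample labels), an established human lymphoma line of the activated B-cell-like (ABC) subtype of diffuse large B-cell lymphoma. Cultures received 20 µM dimethyl fumarate (DMF), a cell-permeable ester of fumarate, in DMSO, or DMSO alone as the control, for 6, 12, 24 or 48 h, with 3 libraries in each of the 8 groups. All groups share the same line and carry no engineered allele. The labels do not say whether replicates were separate cultures, so p-values measure the spread between these libraries, which may be technical. The B-cell genes MS4A1, CD79A, CD79B, PAX5 and IRF4 had median levels of 117 to 2102 TPM (transcript abundance corrected for length and library size), and the T-cell, myeloid and fibroblast genes CD3D, CD3E, CD8A, CD14, LYZ, COL1A1 and COL1A2 stayed at 0.73 TPM or less in every library. The myeloid gene CD68 reached 10.01 TPM, and the epithelial genes EPCAM and KRT8 reached 3.9 and 2.41.

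Total expected counts were 23097873 to 40906596 in 23 libraries and 2870751 in DMF replicate 1 of 48 h. Replicate 3 of 12 h stood apart in both groups. Weighting each gene's effective transcript length by its count gave a mean of 1902 bases in that control library and 2121 in that DMF library, against 2850 to 3157 in the other 22. The members' share of counts was 1.798% and 1.568% there, against 0.872% to 1.284% elsewhere. ATP5IF1 stood at 236 and 180.0 CPM (the count scaled to library size) in those 2 libraries and at 58.4 to 69.3 in the other 4 of 12 h. The results below therefore rest on 22 libraries, with 2 per group at 12 h, and values from all 24 are given beside the counts.

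Members differed widely in level in control cells at 6 h, on the TPM scale, which corrects for transcript length. Complex IV had the highest median, 549 TPM, and its members ran from 1.14 TPM for NDUFA4L2, a paralog of NDUFA4 known as a target of hypoxia signalling, to 1410 for COX7C. Complex V had a median of 363 TPM, with ATP5S (DMAC2L in RefSeq), known as coupling factor B, lowest at 8.87 and the F1 epsilon subunit ATP5F1E highest at 1010. Medians were 123 TPM in complex I (NDUFV3 20.0, NDUFA13 466), 112 in complex II (SDHC 50.2, SDHD 188) and 93.7 in complex III (UQCRB 37.2, UQCRH 1610). Most members have short transcripts. Their median effective length was 565 bases against 2657 for all 13606 genes tested, and 58 of 83 (69.9%) lay under 1000 bases against 10.3% of all genes tested.

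Promoters were taken from RefSeq on GRCh38.p14, where 67 members had an entry spanning 250 bases before to 50 after an annotated start. Sequences are shown for 5 members whose levels did not all move alike. ATP5IF1 and NDUFA1 rose throughout, NDUFV1 fell from 12 h on, ATP5PF rose late and UQCRH changed direction. Each run is the 250 bases before the start, 5′ to 3′ on the gene's own strand. Capitals mark matches, on either strand, to AAGATGG (the core of the YY1 motif) or CCGGAAG (the core bound by ETS factors such as GABPA).
ATP5IF1: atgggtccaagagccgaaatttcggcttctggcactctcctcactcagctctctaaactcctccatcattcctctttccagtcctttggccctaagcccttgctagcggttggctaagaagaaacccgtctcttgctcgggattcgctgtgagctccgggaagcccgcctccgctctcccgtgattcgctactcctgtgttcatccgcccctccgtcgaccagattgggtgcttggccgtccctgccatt
NDUFV1: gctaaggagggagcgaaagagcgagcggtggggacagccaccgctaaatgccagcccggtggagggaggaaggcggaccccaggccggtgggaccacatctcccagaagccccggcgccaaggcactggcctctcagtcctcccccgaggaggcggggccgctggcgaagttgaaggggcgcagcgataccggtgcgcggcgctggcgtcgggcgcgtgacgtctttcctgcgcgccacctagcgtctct
ATP5PF: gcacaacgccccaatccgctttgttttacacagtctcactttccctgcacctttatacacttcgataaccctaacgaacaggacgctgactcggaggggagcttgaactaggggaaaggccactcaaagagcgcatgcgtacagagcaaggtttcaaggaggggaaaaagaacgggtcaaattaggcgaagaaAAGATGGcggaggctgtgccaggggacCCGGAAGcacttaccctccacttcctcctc
UQCRH: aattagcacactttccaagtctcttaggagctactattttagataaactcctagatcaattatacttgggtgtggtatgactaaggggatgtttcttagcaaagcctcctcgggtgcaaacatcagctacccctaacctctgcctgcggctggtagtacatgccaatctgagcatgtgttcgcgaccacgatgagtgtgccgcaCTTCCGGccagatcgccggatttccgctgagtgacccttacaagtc
NDUFA1: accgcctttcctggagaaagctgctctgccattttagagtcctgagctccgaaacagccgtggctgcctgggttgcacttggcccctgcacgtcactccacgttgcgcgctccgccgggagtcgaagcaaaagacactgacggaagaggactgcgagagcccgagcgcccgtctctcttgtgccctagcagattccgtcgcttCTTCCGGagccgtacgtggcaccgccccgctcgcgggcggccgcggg
The ATP5IF1 sequence lies on the plus strand at chr1:28235874-28236123, and the NDUFV1 sequence on the plus strand at chr11:67606686-67606935. The ATP5PF sequence is on the minus strand at chr21:25735055-25735304, and its matches begin 57 (YY1) and 30 (ETS) bases before the start used there. The ATP5PF locus spans chr21:25724500-25735653, so these bases lie inside the gene and not before its outermost start. That locus also overlaps the gene GABPA. UQCRH is on the plus strand at chr1:46303448-46303697 with an ETS match beginning 46 bases before the start, and NDUFA1 on the plus strand at chrX:119871582-119871831 with one beginning 47 before. No letters of the motifs searched were found in the printed bases of ATP5IF1 or NDUFV1.

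A total of 5 motif spellings were counted on both strands of the whole windows. CCGGAAG was in 20 of the 67 member promoters (29.9%), against 10.7% of all 27305 promoters and 19.4% of the 10259 promoters of genes tested. The NRF1 (nuclear respiratory factor 1) motif, GCGCA and GCGC with any 1 base between them, was in 16 (23.9%, against 6.28% and 11.6%), and AAGATGG was in 16 (23.9%, against 6.06% and 7.59%). The antioxidant response element TGACNNNGC, bound by NFE2L2, was in 10 (14.9%, against 13.6% and 15%) and the E-box CACGTG in 7 (10.4%, against 7.43% and 10.3%). Matches to different motifs may share bases, and a promoter can hold more than 1. At 24 h, 15 of 20 members with the ETS letters and 26 of 47 without them were higher with DMF, and the medians on the log2 scale were 0.23 and 0.16. For the NRF1 letters the counts were 10 of 16 and 31 of 51, with medians of 0.14 and 0.21. AAGATGG gave 9 of 16 and 32 of 51 (medians 0.15 and 0.23). The antioxidant response element gave 8 of 10 and 33 of 57 (0.27 and 0.19), and the E-box 2 of 7 and 39 of 60 (0.09 and 0.22). Of all genes tested, 29.5% were higher at 24 h. Members with and without a motif were not tested against each other, and transcript length was not taken into account. A match describes the letters and says nothing of binding.

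DMF moved many members by small amounts, and the balance of directions changed with time. At 6 h, 35 of 83 were higher with DMF and 4 lower, where 23.8% and 23.4% of all genes tested were higher and lower. At 12 h the counts were 20 higher and 8 lower (24.1% and 23.8% of all genes), at 24 h 52 higher and 6 lower (29.5% and 27.9%), and at 48 h 29 higher and 22 lower (33.6% and 30.9%). Thus the shares of members higher, 42.2%, 24.1%, 62.7% and 34.9%, lay above the background at 6 and 24 h and close to it at 12 and 48 h, while the share lower lay under the background at each time. The median log2 fold change of the members was 0.12, 0.08, 0.19 and 0.08 at 6, 12, 24 and 48 h, beside 0.00, 0.00, 0.01 and 0.02 for all genes tested. As folds, the members' medians were 1.09, 1.06, 1.14 and 1.06. Rises and falls cancel in such medians, so they do not give the size of a typical member's change. All DMF libraries lay above all controls for 45 members and below for 7 at 6 h (29.9% and 29.4% of all genes). For 12 h the numbers were 43 above and 16 below (37.0% and 36.2%), for 24 h 52 and 6 (32.2% and 31.2%), and for 48 h 15 and 17 (30.6% and 29.8%). Calls are edgeR quasi-likelihood tests at an adjusted p under 0.05. In bulk RNA, fewer cells in a given state and less RNA per cell cannot be told apart.

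**Figure D1:**
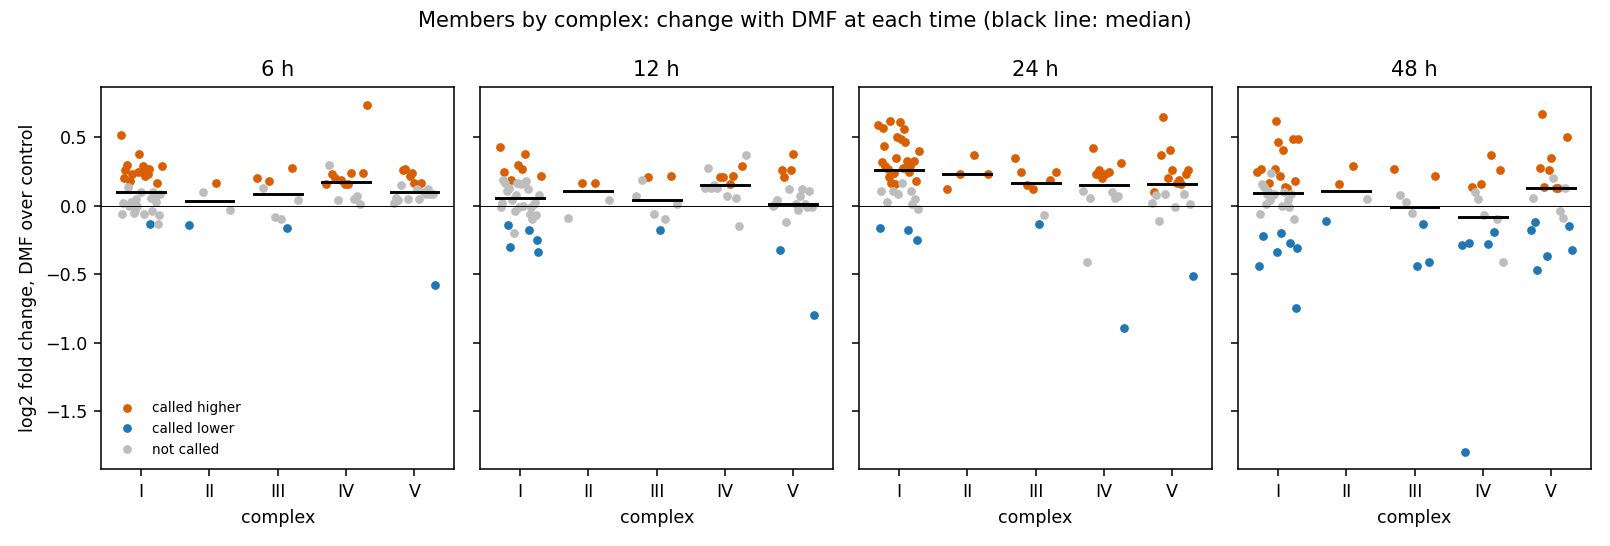
Change of 81 members with DMF, by complex and time, the 2 read-through loci being left out. The vertical axis is the log2 fold change of DMF over control, each point is a gene, colour gives the call at an adjusted p under 0.05, and the black line is the median of the complex. At 24 h the complex I median is 0.26, and at 48 h the members of each complex spread to both sides of 0.

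Several of these counts rest on single libraries. Without DMF replicate 3 of 6 h, 23 members were higher at 6 h. At 12 h, 7 were higher without control replicate 1, 12 without DMF replicate 1 and 7 without DMF replicate 2, and at 48 h 17 were higher without control replicate 3. With all 24 libraries the common dispersion was 0.0521, against 0.00212 for the 22. In that edgeR fit 0 members were higher and 1 lower at 6 h (3 and 1 at an unadjusted p under 0.05), where 5.03% and 5.59% of all genes were. For 12 h it called 3 higher and 1 lower (7.37% and 9.95%), for 24 h 3 and 1 (7.81% and 6.6%), and for 48 h 3 and 2 (13.3% and 12.5%). In TPM, the median of all genes tested moved by -0.10 at 6 h and 0.17 at 48 h. Relative to that median the members stood at 0.09, 0.03, 0.16 and 0.12, though their unadjusted TPM medians at 6 and 12 h were -0.01 and -0.04. Of 124 values of single members followed through the alternatives, 84 were called in the main fit. Of these 84, 22 lost their call on TPM and 4 more changed sign. With all 24 libraries 69 lost it and 5 more changed sign.

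Transcript length moved with the result at 24 h. The weighted mean effective length was 2890 to 3028 bases in the DMF libraries of 24 h and 3088 to 3099 in their controls, with no overlap. Among all genes tested, the median log2 fold change at 24 h was 0.24 under 500 bases, 0.19 from 500 to 1000, 0.11 from 1000 to 2000, 0.00 from 2000 to 4000 and -0.14 over 4000. The members showed 0.23, 0.18, 0.17 and 0.10 in the first 4 of these ranges (35, 23, 15 and 8 genes), which is the level of other genes of like length below 1000 bases. With an offset that removes the dependence on length in each library, 24 members were higher and 23 lower at 24 h, with 29.6% and 29.4% of all genes higher and lower, and the members' median was 0.00. Of the 52 members higher without the offset, 24 were higher with it, 27 were not called and 1 was lower. The 6 that were lower were lower in both fits.

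At the other times the offset changed less. It gave 28 higher and 8 lower at 6 h (background 27.4% and 24.0%), 26 and 12 at 12 h (30.1% and 23.2%) and 37 and 22 at 48 h (34.7% and 32.4%), with medians of 0.06, 0.06 and 0.10. At 48 h all 29 members called higher and all 22 called lower without the offset kept their call with it. What part it has in the other results was not tested.

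**Figure D2:**
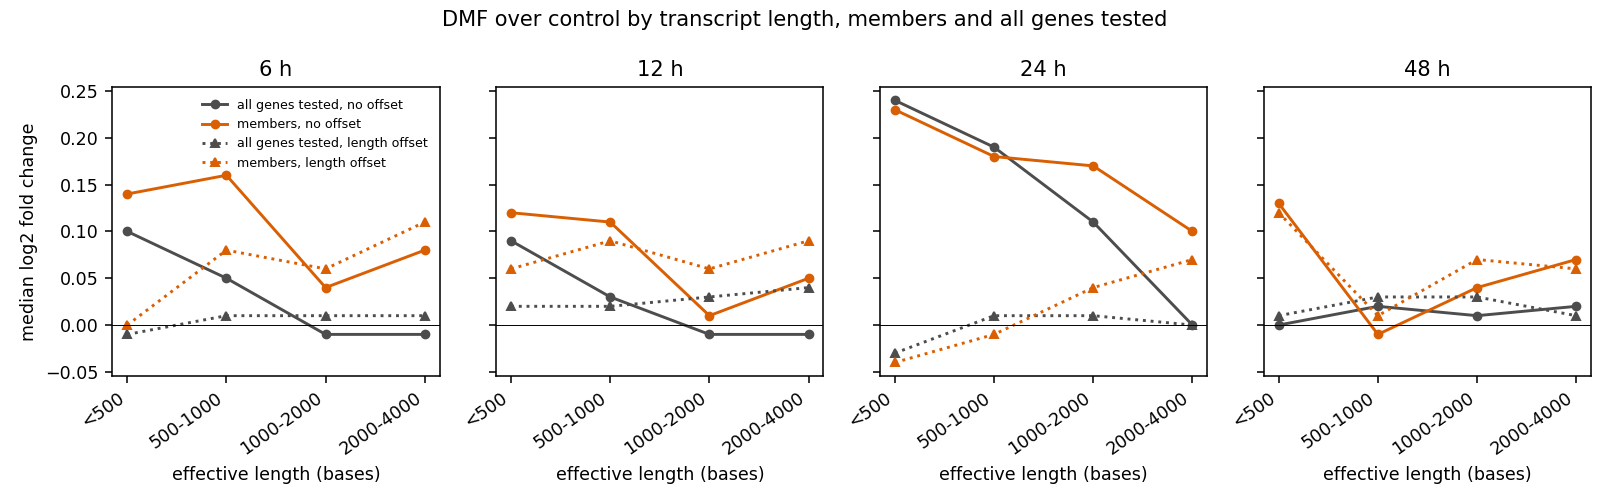
Median log2 fold change of DMF over control (vertical axis) by effective transcript length in bases (horizontal axis), for all genes tested (grey) and members (orange), without (circles, solid) and with (triangles, dotted) the length offset. At 24 h both solid lines slope from above 0.2 for the shortest genes to 0.10 or less for the longest range shown, and the dotted lines stay near 0.

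Among the subunits of complex I, the numbers higher and lower were 16 and 1 (6 h), 7 and 5 (12 h), 24 and 3 (24 h), and 13 and 7 (48 h). As shares, 19.4% were higher at 12 h and 36.1% at 48 h, close to the 24.1% and 33.6% of all genes, against 44.4% and 66.7% at 6 and 24 h, where all genes had 23.8% and 29.5%. The medians were 0.10, 0.06, 0.26 and 0.09. The 7 nuclear core subunits, which carry the flavin and the iron-sulfur clusters, and the 29 accessory subunits gave different counts. At 6 h, 1 core subunit was higher and 1 lower (median -0.04), while 15 accessory subunits were higher and 0 lower, with a median of 0.18 (edgeR; DESeq2 gave 15 and 0, as did an unadjusted p under 0.05). The length offset gave 12 higher and 1 lower, and all 24 libraries 0 and 0 in edgeR (also at an unadjusted p under 0.05). At 24 h, 3 core subunits were higher and 2 lower (median 0.05), and 21 accessory subunits were higher and 1 lower (median 0.29). With the length offset 2 core subunits were higher and 4 lower (median -0.16) and 12 accessory subunits higher and 4 lower (median 0.06), while all 24 libraries called 1 accessory subunit, as higher. The core and accessory groups were not tested against each other.

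NDUFV1, the core subunit that binds FMN and takes electrons from NADH, fell. Its levels were 114, 126 and 112 CPM in the controls and 105, 114 and 116 with DMF at 6 h, where the groups overlapped. They were 125 and 129 against 99.2 and 101 at 12 h, and 154, 158 and 159 against 141, 130.0 and 125 at 24 h. At 48 h the controls had risen to 169, 211 and 183 while the DMF libraries held 105, 109 and 118. Every DMF library lay below every control from 12 h on. The log2 fold change was -0.34 at 12 h (SE 0.077, adjusted p = 0.0006), -0.25 at 24 h (SE 0.062, adjusted p = 0.0013) and -0.75 at 48 h (SE 0.066, adjusted p = 2.6e-10), which is 1.68-fold lower, and with the length offset it was -0.30, -0.36 and -0.72.

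The largest core subunit, NDUFS1, was lower at 6, 12 and 24 h by -0.13, -0.18 and -0.18 and higher at 48 h by 0.13. The calls at 6 h were lost without any 1 of the 6 libraries of that time (adjusted p 0.058 to 0.12), that at 12 h without control replicate 2 or DMF replicate 2 (adjusted p 0.17 and 0.094), and that at 48 h most clearly without control replicate 2 (adjusted p = 0.15). NDUFV2, the iron-sulfur partner of NDUFV1, was not called before 48 h, when it fell by 0.31 (adjusted p = 0.00014). Its 3 DMF libraries held 56.7, 56.1 and 54.4 CPM against 67.0, 76.6 and 62.1. In TPM the groups of NDUFV2 overlapped at 48 h, at 141 to 156 in the controls and 137 to 145 with DMF, while the TPM median of all genes moved by 0.17. The call of NDUFV2 did not hold in every alternative fit of the 22 libraries.

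Several accessory subunits of complex I rose. NDUFB3, in the membrane arm, was at 21.1, 22.1 and 20.8 CPM in the 6 h controls and 27.6, 27.8 and 28.0 with DMF. At 24 h it was at 29.2, 32.4 and 29.8 against 43.3, 40.7 and 45.4, and at 48 h at 27.9, 33.8 and 28.4 against 45.5, 46.7 and 46.0. No DMF library overlapped a control at these times. The log2 fold changes were 0.38, 0.30, 0.50 and 0.62 at 6, 12, 24 and 48 h (SE 0.062 to 0.078, adjusted p 8.2e-09 to 0.0024), and 0.29, 0.26, 0.27 and 0.64 with the length offset. The 12 h call was lost without control replicate 1 (adjusted p = 0.076).

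NDUFB5, also of the membrane arm, rose at 24 h from 76.1, 74.3 and 73.9 CPM to 117, 108 and 118, and at 48 h from 76.3, 82.6 and 68.8 to 109, 102 and 107. Its log2 fold change was 0.61 (SE 0.056, adjusted p = 9.1e-10) at 24 h and 0.47 (SE 0.059, adjusted p = 1.1e-07) at 48 h, and 0.42 and 0.49 with the length offset. It was among the few members still called with all 24 libraries at both times (adjusted p = 0.014 and 0.034). NDUFA8, a twin-cysteine subunit of the intermembrane space, stood at 44.4, 44.0 and 43.3 CPM in the 24 h controls and 71.0, 65.3 and 65.7 with DMF, a log2 fold change of 0.62 (SE 0.054, adjusted p = 4.8e-10). By 48 h its levels were 43.7, 50.4 and 43.3 against 49.2, 53.8 and 50.3, which overlap, and the change of 0.17 was lost without control replicate 3 or DMF replicate 2 (adjusted p 0.06 and 0.12). With the offset the 24 h change was 0.41.

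NDUFA1, a membrane arm subunit with a short transcript of 224 bases, was at 41.1, 42.9 and 37.4 CPM in the 6 h controls and 55.2, 56.9 and 61.7 with DMF, and rose by 0.52 on the log2 scale (SE 0.089, adjusted p = 2.7e-05). It rose by 0.43 at 12 h, a call lost without control replicate 1 (0.23, adjusted p = 0.098), by 0.59 at 24 h and by 0.25 at 48 h. The 48 h call was lost without control replicate 1, control replicate 3 or DMF replicate 2 (adjusted p 0.07, 0.056 and 0.12). With the length offset the NDUFA1 changes were 0.38, 0.33, 0.30 and 0.27 at 6, 12, 24 and 48 h. NDUFB9 rose by 0.27, 0.38, 0.56 and 0.41 at the 4 times, and by 0.17, 0.34, 0.33 and 0.42 with the offset. NDUFA10 went the other way, with 101, 111 and 98.1 CPM in the 48 h controls and 69.0, 76.8 and 78.1 with DMF, a change of -0.44 (SE 0.049, adjusted p = 2e-08).

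Complex II, succinate dehydrogenase, makes fumarate, the acid from which DMF derives. Its 4 genes were all higher at 24 h, by 0.12 (SDHA), 0.23 (SDHB), 0.37 (SDHC) and 0.23 (SDHD), where 29.5% of all genes tested were higher. The median of the complex was 0.03, 0.10, 0.23 and 0.11 at the 4 times. With the length offset the 24 h values were 0.11 (SDHA), 0.06 (SDHB), 0.35 (SDHC) and 0.09 (SDHD), and SDHB was no longer called. SDHC, a membrane anchor that holds the heme, was at 86.4, 83.4 and 89.3 CPM in the 24 h controls and 114, 113 and 109 with DMF. At 48 h it was at 86.5, 88.4 and 80.1 against 105, 103 and 105. The DMF libraries lay above the controls at each time, and the log2 fold changes were 0.17, 0.17, 0.37 and 0.29 (SE 0.045 to 0.055, adjusted p 1.1e-07 to 0.013). SDHC was called at 24 and 48 h with all 24 libraries too (adjusted p = 0.0016 and 0.0053), and its changes with the length offset were 0.35 and 0.29. The 12 h call was lost without control replicate 1, DMF replicate 1 or DMF replicate 2, and on TPM the values at 6 and 12 h were 0.03 and 0.05 (limma, adjusted p 0.64 and 0.44). The TPM median of all genes moved by -0.10 and -0.07 at those times.

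SDHA, the flavoprotein that oxidises succinate, changed direction. It had 113, 123 and 116 CPM in the 6 h controls and 105, 107 and 107 with DMF, a change of -0.14 (adjusted p = 0.0094) that was lost without control replicate 2 (adjusted p = 0.07). It had 147, 152 and 148 against 169, 155 and 163 at 24 h, a change of 0.12 (adjusted p = 0.016), lost without control replicate 1 or DMF replicate 1 (adjusted p 0.053 and 0.09). At 48 h it had 166, 180.0 and 162 against 153, 157 and 158, and the change of -0.11 (adjusted p = 0.029) was lost without 8 single libraries in turn, the weakest being without control replicate 2 (adjusted p = 0.27), and became 0.10 in TPM, which is -0.06 relative to all genes. SDHB, the iron-sulfur subunit, rose by 0.17, 0.23 and 0.16 at 12, 24 and 48 h. Its 12 h call was lost without any 1 of the 4 libraries of that time (adjusted p 0.051 to 0.21), and that of 48 h without control replicate 3 (adjusted p = 0.093). With the length offset its 24 h change was 0.06 (adjusted p = 0.15).

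In complex III, 3 genes were higher and 1 lower at 6 h and 2 and 1 at 12 h. At 24 h 6 were higher and 1 lower (3 and 2 with the length offset), and at 48 h 2 were higher and 3 lower. The shares of 25.0% higher at 12 and 48 h lie near or under those of all genes, 24.1% and 33.6%. UQCRH, the hinge protein that joins cytochrome c to the complex, was at 381, 412 and 365 CPM in the 6 h controls and 449, 475 and 487 with DMF. It was at 358, 367 and 344 against 425, 393 and 407 at 24 h. At 48 h the order was reversed, with 494, 573 and 503 in the controls and 373, 400.0 and 406 with DMF. No libraries overlapped at these 3 times. The log2 fold changes were 0.28 (SE 0.063, adjusted p = 0.00057), 0.19 (SE 0.063, adjusted p = 0.01) and -0.41 (SE 0.065, adjusted p = 5e-06). The 24 h increase turned to -0.06 with the length offset and was at an adjusted p of 0.05 without control replicate 3, and the call at 12 h (0.22) was lost without control replicate 1 (0.08, adjusted p = 0.5) or DMF replicate 2 (0.15, adjusted p = 0.21).

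UQCRC2, a core protein of complex III, rose in the controls from 145, 143 and 144 CPM at 6 h to 240.0, 227 and 210.0 at 48 h, while DMF libraries went from 138, 132 and 135 to 165, 168 and 166. Its change with DMF was -0.18, -0.13 and -0.44 at 12, 24 and 48 h (adjusted p = 0.0033, 0.0055 and 1e-09). UQCRFS1, the Rieske iron-sulfur protein, was lower by -0.16 at 6 h, a call lost without control replicate 1 or DMF replicate 2 (adjusted p 0.079 and 0.069). UQCR10 and UQCRQ, small subunits of the complex, were higher at 24 h by 0.35 and 0.25 and at 48 h by 0.27 and 0.22, the last being lost without control replicate 3 (adjusted p = 0.055).

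In complex IV, all 14 fold changes were above 0 at 6 h, and 9 passed the test as higher and 0 as lower, both by edgeR and by DESeq2 and also at an unadjusted p under 0.05. With the length offset 10 were above 0, 5 passed as higher and 2 as lower, and with all 24 libraries 0 and 0 (edgeR; 1 and 0 at an unadjusted p under 0.05). At 24 h 7 were higher and 1 lower, which became 2 and 6 with the length offset. At 48 h, 4 were higher and 5 lower (28.6% and 35.7%, near the 33.6% and 30.9% of all genes), and the median went from 0.18 at 6 h to 0.16, 0.16 and -0.09. Without DMF replicate 1 and control replicate 2 of 48 h the last median was 0.02, with the length offset that of 24 h was -0.07, and in TPM relative to all genes the medians were 0.15, 0.11, 0.14 and -0.04. COX4I1, the ubiquitous form of subunit 4, had 460.0, 458 and 452 CPM in the 6 h controls and 504, 497 and 532 with DMF, a change of 0.16 (adjusted p = 0.02), lost without control replicate 3 or DMF replicate 3 (adjusted p 0.058 and 0.089). At 48 h it had 540.0, 634 and 523 against 448, 461 and 479, a change of -0.29 (SE 0.057, adjusted p = 0.00011). COX5A was at 0.23 (SE 0.051, adjusted p = 0.00062) and -0.27 (SE 0.053, adjusted p = 8.9e-05). On TPM, by limma, the 48 h values were -0.05 for COX4I1 (adjusted p = 0.17) and -0.03 for COX5A (adjusted p = 0.38), so both decreases lost their call there. These 2 TPM values are not relative to all genes, whose median moved by 0.17 on that scale at 48 h.

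COX7A2L, which joins complex III to complex IV in supercomplexes, was at 81.3, 82.8 and 85.2 CPM in the 6 h controls and 98.4, 92.4 and 103 with DMF. At 24 h it was at 81.0, 83.6 and 80.0 against 101, 93.8 and 95.6. At 48 h the controls had 106, 105 and 97.0 and the DMF libraries 89.0, 83.2 and 84.5. The groups did not overlap in CPM at any of these times and had the opposite order at 48 h. Its log2 fold changes were 0.24 (SE 0.046, adjusted p = 0.00013), 0.25 (SE 0.046, adjusted p = 5.4e-05) and -0.28 (SE 0.048, adjusted p = 1.7e-05). In TPM the groups overlapped at 48 h, with 163 to 181 in the controls and 161 to 173 with DMF, and limma gave -0.05 (adjusted p = 0.29) and, at 6 h, 0.09 (adjusted p = 0.061). The TPM median of all genes moved by 0.17 at 48 h and by -0.10 at 6 h. The 24 h increase was 0.07 with the length offset (adjusted p = 0.1 in edgeR). Other subunits kept rising at 48 h. COX7B rose by 0.37 (SE 0.062, adjusted p = 1.4e-05) and NDUFA4 by 0.26 (SE 0.06, adjusted p = 0.0005), the latter having risen by 0.24, 0.29 and 0.31 before.

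The 2 tissue-restricted forms were near the limit of detection. COX4I2, the form of subunit 4 known from lung and hypoxic cells, was at 0.144 to 0.613 CPM in the controls. At 48 h its DMF libraries had 0.313, 0.241 and 0.0283 CPM against 0.613, 0.331 and 0.604, and the change of -1.80 (SE 0.533, adjusted p = 0.0048) was lost without DMF replicate 3 (-1.04, adjusted p = 0.1). NDUFA4L2 had 0.643, 0.660 and 0.751 CPM in the 6 h controls and 1.23, 1.05 and 1.18 with DMF (0.74, SE 0.234, adjusted p = 0.011). At 24 h it had 0.721, 0.924 and 0.710 against 0.444, 0.359 and 0.470 (-0.89, SE 0.256, adjusted p = 0.0044). Its locus overlaps SHMT2 in RefSeq, and since the counting is not stated to use strand, reads of the 2 genes cannot be told apart with certainty.

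In complex V, 6 genes were higher and 1 lower at 6 h, and at 12 h 4 were higher and 2 lower. As shares, 31.6% were higher at 6 h, beside 23.8% of all genes, and 21.1% at 12 h, close to the 24.1% of all genes. At 24 h 11 were higher and 1 lower, or 57.9% and 5.26% beside 29.5% and 27.9% of all genes. The 48 h counts were 8 and 6, or 42.1% and 31.6% beside 33.6% and 30.9% of all genes. With the length offset the 24 h counts were 2 and 7, and the 24 h median went from 0.16 to -0.05. It held the member that rose most at 24 and 48 h, ATP5IF1, and the one that fell most at 6 and 12 h, ATP5S. ATP5IF1, the inhibitory factor that blocks ATP hydrolysis by the synthase, was at 55.6, 55.8 and 55.3 CPM in the 6 h controls and 63.9, 64.6 and 72.9 with DMF. It was at 62.8 and 60.3 against 70.3 and 71.9 at 12 h. At 24 h it was at 76.3, 71.8 and 72.7 against 120.0, 111 and 116, and at 48 h at 75.1, 96.2 and 78.3 against 126, 137 and 131. Every DMF library lay above every control at each time. The log2 fold changes were 0.27 (SE 0.067, adjusted p = 0.0014), 0.21 (SE 0.08, adjusted p = 0.032), 0.65 (SE 0.064, adjusted p = 3.2e-09) and 0.67 (SE 0.066, adjusted p = 1.9e-09), or 1.57-fold and 1.59-fold at 24 and 48 h. With the length offset they were 0.15, 0.14, 0.39 and 0.69, all called. The 12 h call was lost without any 1 of the 4 libraries of that time (adjusted p 0.064 to 0.16) and the value was -0.16 with replicate 3 of 12 h included (adjusted p = 0.85).

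ATP5S fell. It is one of the least abundant members, at 8.69, 8.71 and 10.1 CPM in the 6 h controls and 5.66, 6.26 and 6.51 with DMF. It was at 7.81 and 7.62 against 4.54 and 4.29 at 12 h, and at 8.25, 8.64 and 9.14 against 6.49, 5.85 and 5.89 at 24 h. The groups did not overlap at these times and did at 48 h, with 8.44, 7.65 and 7.69 against 9.09, 6.58 and 5.65. The changes were -0.58 (SE 0.097, adjusted p = 2e-05), -0.80 (SE 0.122, adjusted p = 5.5e-06), -0.51 (SE 0.094, adjusted p = 4.7e-05) and -0.32 (SE 0.105, adjusted p = 0.01). The last was lost without DMF replicate 3 (adjusted p = 0.19) and was 0.07 in TPM, or -0.10 relative to all genes. The first 3 were called with all 24 libraries too (adjusted p = 0.0087, 5.2e-05 and 0.014). The gene overlaps CDKL1 in RefSeq.

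The large subunits of the catalytic head of the synthase, F1, changed little. ATP5F1B, the catalytic beta subunit, was higher at 24 h by 0.10 (adjusted p = 0.033) and ATP5F1A, the alpha subunit, lower at 48 h by -0.18 (adjusted p = 0.00023). The beta subunit's call was lost with the length offset (0.01, adjusted p = 0.83) and without 11 single libraries in turn, the weakest being without DMF replicate 1 of 24 h (adjusted p = 0.12). The alpha subunit's value at 48 h was 0.05 in TPM, or -0.11 relative to all genes. ATP5F1D, the delta subunit, fell by 0.32 at 12 h and by 0.47 at 48 h (SE 0.072, adjusted p = 2.9e-06), from 103, 119 and 99.9 CPM to 83.4, 73.9 and 79.4, while ATP5F1E, the epsilon subunit, rose by 0.26, 0.26, 0.37 and 0.28 (the 12 h call being lost without either of 2 libraries, at an adjusted p of up to 0.058). The 24 h call of ATP5F1E, whose effective length is 177 bases, did not hold in every alternative fit of the 22 libraries. ATP5PF, coupling factor 6 of the peripheral stalk, rose late. It was at 102, 95.9 and 109 CPM in the 24 h controls and 127, 118 and 123 with DMF, and at 77.9, 88.7 and 75.2 against 110.0, 120.0 and 110.0 at 48 h, for changes of 0.26 (SE 0.058) and 0.50 (SE 0.062, adjusted p = 9.5e-08). With the offset its 24 h change was 0.08 (adjusted p = 0.12) and that of 48 h was 0.52.

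The 3 genes for the c subunit encode the same mature protein of the membrane rotor and had different calls. ATP5MC3 rose at all times, by 0.24, 0.26, 0.41 and 0.26. The 12 h call was lost without control replicate 1 (adjusted p = 0.077), and the gene was called at 24 and 48 h in each alternative fit and without each single library. ATP5MC2 rose by 0.22 at 6 h and 0.20 at 24 h and fell by 0.37 at 48 h (SE 0.049, adjusted p = 3.4e-07), when its DMF libraries held 104, 109 and 113 CPM against 137, 155 and 135. The 24 h value was -0.05 with the length offset. ATP5MC1 was called at 48 h, at 0.14, a call lost without 6 single libraries in turn, the weakest being without control replicate 3 of 48 h (adjusted p = 0.26). Whether the 3 genes differ from one another in response was not tested.

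**Figure D3:**
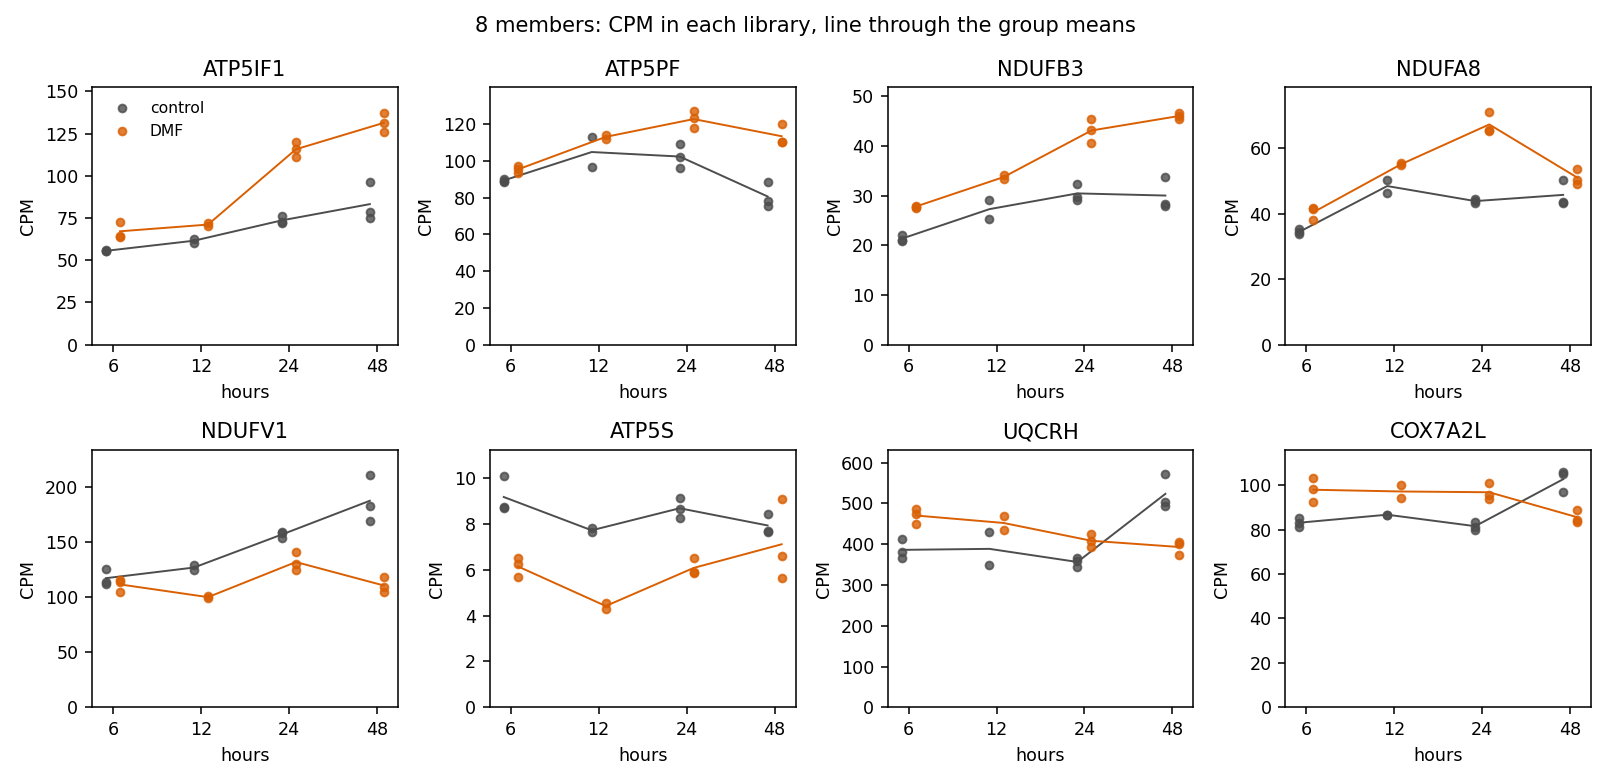
CPM (vertical axis, from 0) of 8 members in each of 22 libraries by hours of treatment (horizontal axis), control in grey and DMF in orange, with lines through the group means. ATP5IF1, ATP5PF and NDUFB3 lie above the controls at 48 h, NDUFV1 below, and UQCRH and COX7A2L exchange order between 24 and 48 h.

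The size of the DMF effect differed between times for 42 of 83 members, by a joint test of the treatment by time interaction, which 69.1% of all genes tested passed. Against 6 h, the effect at 24 h was higher (more positive) for 16 members and lower (more negative) for 2 (22.5% and 21.9% of all genes), and with the length offset for 9 and 18 (22.2% and 25.3%). The 16 included 3 genes of complex II, SDHA (0.27), SDHC (0.20) and SDHD (0.26), together with NDUFA8 (0.38), ATP5IF1 (0.38) and NDUFB5 (0.36). The effect at 48 h was higher for 8 members and lower for 22 (26.7% and 24.2%), and with the offset for 21 and 20 (27.5% and 27.1%). The smallest joint p-values were those of ATP5MC2, COX7A2L, UQCRH, NDUFV1 and COX5A, all 5 of which had a lower effect at 48 h, by -0.59, -0.52, -0.69, -0.68 and -0.50. Without DMF replicate 2 of 6 h, 8 members had a higher effect at 24 h than at 6 h. Without control replicate 2 of 48 h, 21 had a higher effect at 48 h than at 6 h, and with either control replicate 3 of 48 h or DMF replicate 2 of 6 h left out, 5 did. With all 24 libraries, edgeR called 0 higher and 0 lower effects at 24 h (3.59% and 2.89% of all genes) and 0 and 1 at 48 h (6.47% and 5.88%), and 1 member passed the joint test (15%). The comparisons at different times use different controls, but these differences share the 6 h libraries.

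Members also moved in the controls as the culture went on. Against 6 h, 53 were higher and 0 lower at 12 h (21.1% and 18.5% of all genes), and 60 were higher and 1 lower at an unadjusted p under 0.05 in edgeR, while DESeq2 called 51 and 0. At 24 h, 61 were higher and 1 lower (28.8% and 27.7%), and at 48 h 57 were higher and 7 lower (38.2% and 36.8%). The medians were 0.23, 0.25 and 0.29, beside 0.00, 0.00 and 0.02 for all genes, and with the length offset 0.16, 0.21 and 0.12. With the offset, the counts were 49 higher and 1 lower (23.1% and 20.2%), 58 and 3 (29.2% and 30.9%), and 41 and 16 (37.5% and 38.6%). With all 24 libraries they were 50 and 0 (12.0% and 6.84%), 5 and 0 (9.29% and 7.53%), and 4 and 0 (21.6% and 20.4%), in edgeR. The 7 core subunits of complex I were all higher at 24 h (median 0.38). NDUFV1 rose by 0.68 and UQCRC2 by 0.65 in the controls between 6 and 48 h, ATP5IF1 by 0.58 and NDUFA1 by 0.84, whereas ATP5MD fell by 0.43. Thus the decreases of NDUFV1, UQCRC2 and UQCRH with DMF at 48 h lie against controls at their highest level of the 4 times. The members lower at 48 h were 4 in number without control replicate 3 of 48 h.

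Summed over members on the TPM scale, complex I amounted to 5837 to 6057 TPM in the 6 h controls and 5942 to 6146 with DMF, which overlap. At 24 h the sums were 7389 to 7478 against 8660 to 8964, and at 48 h 6817 to 7250 against 8560 to 8755. Complex II stood at 461 to 464 against 416 to 433 at 6 h, lower with DMF, and at 437 to 445 against 543 to 550 at 48 h, higher with DMF. Complex III at 48 h was the exception, at 2921 to 3022 against 2774 to 2896. UQCRH has the highest TPM in that complex. These sums follow the TPM scale, in which the median of all genes moved by -0.10 at 6 h and 0.17 at 48 h. Relative to that median, the median log2 difference of the complex II genes was -0.01 at 6 h and 0.17 at 48 h.

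**Figure D4:**
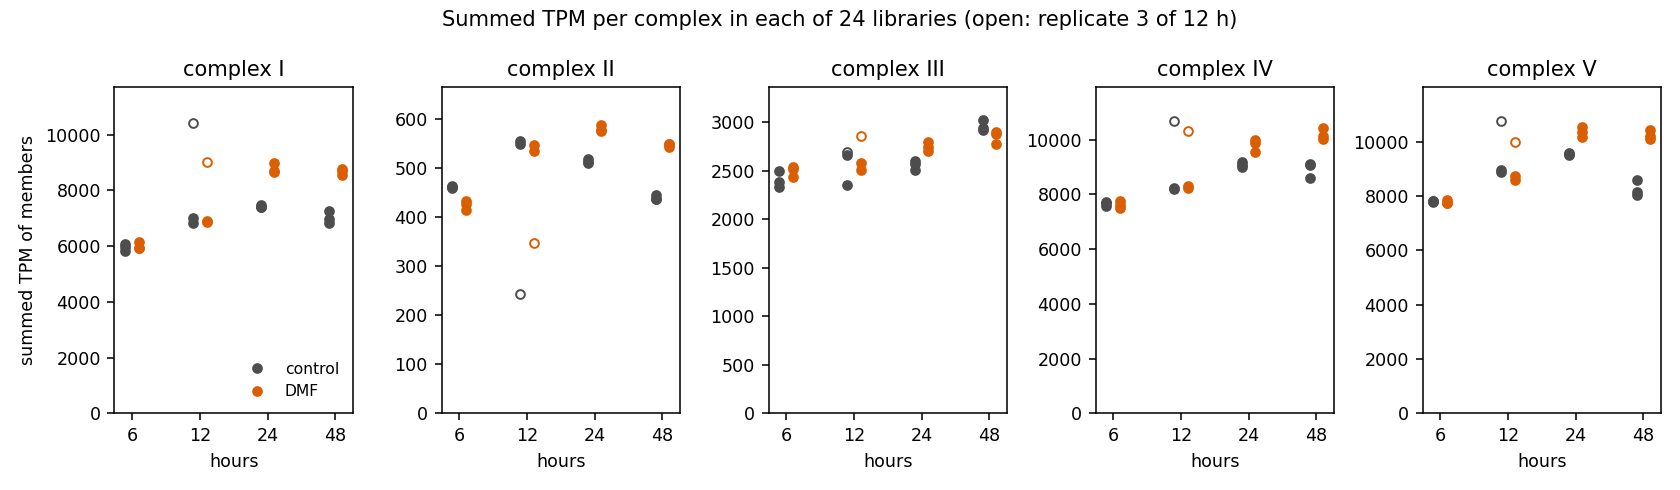
Summed TPM of the members of each complex (vertical axis, from 0) in each of the 24 libraries by hours of treatment (horizontal axis), control in grey and DMF in orange. Open symbols are replicate 3 of 12 h. DMF libraries lie above the controls at 24 and 48 h in complexes I, II, IV and V, and below them at 48 h in complex III.

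Other genes of the pathway were read from lists of known function, whose counts stand beside shares of all genes higher and lower of 23.8% and 23.4% (6 h), 24.1% and 23.8% (12 h), 29.5% and 27.9% (24 h), and 33.6% and 30.9% (48 h). Of 18 assembly factors of complex I, 4 were higher and 4 lower at 6 h and 5 and 5 at 12 h, which is near those shares. The later counts were 7 higher and 1 lower (24 h; 4 and 3 with the length offset) and 11 higher and 2 lower (48 h). The median at 48 h was 0.29, and 0.31 with the length offset. NDUFAF1 rose at each time (0.33, 0.46, 0.74 and 0.86), TIMMDC1 rose by 0.38 and 0.72 at 24 and 48 h, and NUBPL, which delivers iron-sulfur clusters to complex I, fell by 0.40 and 0.65. Of 36 assembly factors of complexes II to V, 26 were higher and 2 lower at 24 h (17 and 4 with the offset) and 18 and 7 at 48 h. TMEM70, an assembly factor of complexes I and V, rose by 0.53, 0.55, 0.42 and 0.84.

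Among 19 genes of cytochrome c, ubiquinone synthesis and electron transfer to ubiquinone, 4 were higher and 7 lower at 6 and at 12 h, and 10 and 4 at 24 and at 48 h (9 and 6 at 24 h with the length offset). ETFDH, which passes electrons from fatty acid oxidation to ubiquinone, rose by 0.58 at 6 h and 0.65 at 48 h. Cytochrome c, CYCS, rose by 0.30 and 0.58 at those times. The 8 carriers and channels of the mitochondrial membranes gave 2 higher and 6 lower at 48 h, with a median of -0.42. The phosphate carrier SLC25A3 fell by 0.83 and the ADP/ATP carrier SLC25A6 by 0.95, while the ADP/ATP carrier SLC25A4 rose by 0.52.

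Of 20 tested regulators of mitochondrial genes, 3 were higher and 11 lower at 24 h, and 9 and 8 at 48 h, beside 29.5% and 27.9% and then 33.6% and 30.9% of all genes. GABPA, an ETS factor whose binding to the member promoters was not tested, fell by 0.61 at 24 h and 0.33 at 48 h, and NRF1 by 0.21 and 0.40. MYC fell by 0.72 and 1.04, ESRRA rose by 0.31 and 0.40, and TFAM, the packaging and transcription factor of mitochondrial DNA, fell by 0.31 and 0.12. PPARGC1A rose by 1.74 at 48 h (SE 0.518), near the limit of detection at means of 0.187 CPM in the controls and 0.643 with DMF. Proteins of the mitochondrial ribosome, which translates the mitochondrially encoded subunits, gave 12 higher and 21 lower of 77 at 6 h, 14 and 10 at 12 h, 29 and 11 at 24 h (16 and 33 with the length offset) and 24 and 20 at 48 h, the last being near the shares of all genes.

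Cytosolic ribosomal proteins have short transcripts as well. Of 82 tested, 54 were higher at 6 h (36 higher and 7 lower with the length offset), 14 higher and 13 lower at 24 h (2 and 63 with the offset), and 3 and 77 at 48 h, with a median of -0.62. The median of the oxidative phosphorylation genes at 48 h was 0.08, and the lists were not tested against each other. NDUFAB1, the mitochondrial acyl carrier protein and a complex I subunit whose symbol falls outside the rule, was higher at 12 h by 0.19 and at 24 h by 0.14. With the length offset NDUFAB1 and NDUFC2-KCTD14 were counted together. Of these, 1 was higher and 0 lower at 12 h, and 0 higher and 1 lower at 24 h, so the 24 h increase did not hold. The read-through loci were not called with DMF at any time. ATP5MF-PTCD1 was listed at 0 in 10 of 22 libraries, and its fold change is not given.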

How the data were processed

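RNA of HBL-1 cells was measured in 24 libraries of 8 groups of 3, prepared with the Qiagen RNeasy Mini kit per the labels' protocols. The deposited tables hold RSEM expected counts, TPM and effective lengths per gene. HISAT2, HISAT and RSEM on GRCh38.p12 are named, without versions, per the submitters' processing notes. Strand use in counting is not given in the sources used here. The expected counts, deposited by the authors without normalization, were rounded to whole numbers, because estimated counts need not be whole. The deposited TPM, which the authors' tool scales by effective length to a fixed sum, served for levels and for 1 alternative.

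Genes were filtered by group (filterByExpr, 13606 of 21831 kept) and tested with edgeR 4.0.16 (R 4.3.3) by the quasi-likelihood F-test with TMM scaling, 8 group means, 22 libraries and 14 residual degrees of freedom. Benjamini-Hochberg adjustment ran over all genes tested, with calls under 0.05. CPM values use TMM-scaled library sizes, and SE is the standard error of a log2 fold change. Alternatives were all 24 libraries (13419 genes), no filter (18070 genes), DESeq2 1.42.0, its size factors in edgeR, limma 3.58.1 on log2(TPM + 1), a replicate block, an offset from a lowess curve (span 0.3) of each library's deviation on log2 effective length, fits of the groups compared alone, and each library left out. A fit of 20 libraries and the split by length range were added after seeing the data. Without a replicate at 12 h, the lone library of an arm is assumed to vary like the other groups.

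Replicates of a group differed by more than sampling noise (chi-square per gene 1.81 to 19.6 among the 22 libraries), so none was counted as a duplicate. The test and the offset were checked on simulated counts.

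The members, the lists and the tests were chosen with earlier results of these data known. Any member could be named. Values in every library were planned for a panel (NDUFV1, NDUFS1, NDUFA4, NDUFA4L2, SDHA to SDHD, UQCRC1, UQCRFS1, UQCRB, COX4I1, COX4I2, COX6A1, COX7A2L, COX8A, ATP5F1A, ATP5F1B and ATP5IF1), for up to 3 called members with the highest and 3 with the lowest fold change at each time whose groups do not overlap, and for the 5 with the smallest joint p. Of the other lists, up to 4 genes with the smallest p at each time could be named, and every regulator and carrier. NDUFA10, NDUFV2, NDUFAB1, UQCRC2, UQCR10, UQCRQ, COX7B, ATP5F1E, ATP5MC1 and ATP5MC3 were picked for description after their values were seen. RefSeq (GRCh38.p14) matched 82 members, of which 30 overlap another gene and 48 have a pseudogene named after them, so their reads could be split in counting. The level of 1 further B-cell marker is not reported here.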

Additional observations from a re-analysis of the deposited data

Results flagged for a closer look

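The values below are those of members whose DMF effect differed between times by a test of the difference itself. The joint test of the interaction between treatment and time passed for 42 members, where 69.1% of all genes tested passed.

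Between 6 and 24 h the effect was more positive for 16 members and more negative for 2 (22.5% and 21.9% of all genes). The difference was positive for NDUFA8 (0.38), ATP5IF1 (0.38), NDUFB5 (0.36), NDUFB9 (0.30), SDHA (0.27), SDHD (0.26), SDHC (0.20) and UQCRC1 (0.20), and it was -1.64 for NDUFA4L2, a gene near 1 CPM, and -0.27 for ATP5F1D. The DMF libraries of 24 h had a lower weighted mean effective length than their controls, 2890 to 3028 against 3088 to 3099 bases, and with the length offset 9 members had a more positive and 18 a more negative effect at 24 h. What part length has in each of these genes was not tested.

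Between 6 and 48 h the effect was more positive for 8 members and more negative for 22 (26.7% and 24.2% of all genes). More positive effects were found for ATP5PF (0.41), ATP5IF1 (0.40), NDUFS1 (0.27), NDUFB3 (0.24) and NDUFB5 (0.22). More negative effects were found for COX4I2 (-2.10), NDUFA4L2 (-1.15), UQCRH (-0.69), NDUFV1 (-0.68), ATP5F1D (-0.62), ATP5MC2 (-0.59), COX7A2L (-0.52), COX5A (-0.50), COX4I1 (-0.45) and ATP5F1A (-0.20). At 48 h, control replicate 2 had the lowest weighted mean effective length of the 22 libraries, 2850 bases, and DMF replicate 1 the lowest total, 2870751. Without these 2 libraries, 18 members had a more positive effect at 48 h than at 6 h. Groups of 3 libraries are too small for a test of single outlying libraries.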

How the results depend on the processing

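Main counts are given in the account of each comparison. With all 24 libraries, members higher and lower with DMF at 6, 12, 24 and 48 h numbered 0 and 1, 3 and 1, 3 and 1, and 3 and 2. Effects relative to 6 h were higher (more positive) and lower (more negative) for 0 and 0 members at 24 h (edgeR) and 0 and 1 at 48 h, the controls of 24 and 48 h for 5 and 0 and 4 and 0, and 1 member passed the joint test. At 12 h the median became -0.16 for all members, -0.18 for complex I, -0.21 for III, -0.15 for IV and -0.16 for V, and ATP5IF1 (-0.16), NDUFA8 (-0.07), UQCRH (-0.02), ATP5MD (-0.01) and UQCRB (-0.01) turned. All 24 libraries with the length offset gave 4 and 1 (6 h), 10 and 4 (12 h), 7 higher (24 h), and 17 and 10 (48 h). That fit gave effects of 2 and 1 at 24 h and 4 lower at 48 h, controls of 33, 23 and 18 higher at 12, 24 and 48 h, and 15 joint, and at 12 h the medians of complexes I and III became -0.01 and -0.13 and UQCRB -0.14.

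The length offset gave 8 lower at 6 h, 24 higher and 23 lower at 24 h, effects of 9 and 18 at 24 h and 21 higher at 48 h, and controls of 1, 3 and 16 lower at 12, 24 and 48 h. In all 3 fits with the offset, the 24 h medians of complexes IV and V became -0.07 and -0.05, and UQCRH (-0.06), ATP5MC2 (-0.05), ATP5MD (-0.04) and COX6A1 (-0.03) turned at 24 h. The offset with the replicate block gave 9 lower at 6 h, 24 and 24 at 24 h, effects of 10 and 19 at 24 h and 21 higher at 48 h, and controls of 1, 3 and 16 lower.

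Among the 22 libraries, same-numbered control and DMF libraries did not deviate together (correlations of -0.054 to 0.044). Replicate 3 of 12 h was left out of these correlations. It stood apart in both groups, with weighted mean effective lengths of 1902 (control) and 2121 bases (DMF). The correlations therefore do not decide whether the numbers pair the samples. The replicate block alone gave 35 and 4, 21 and 7, 51 and 6, and 28 and 20 members at the 4 times and 42 joint, and moved no count by over 1.5 times. Of the 84 called values of single members, it ended 1 call, that of UQCRFS1 at 48 h (-0.12, adjusted p = 0.05 in edgeR).

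On TPM, limma gave 13 and 17 (6 h), 7 and 23 (12 h) and 60 and 8 (48 h), effects of 32 and 1 at 24 h and 61 and 7 at 48 h, 11 lower in the controls of 48 h, and 69 joint. Medians became -0.01 (all members), -0.02 (I), -0.11 (II), -0.05 (III) and -0.02 (V) at 6 h, -0.04, -0.06, -0.01, -0.07 and -0.09 at 12 h in the same order, and 0.21 (III) and 0.13 (IV) at 48 h. ATP5F1A (0.05), ATP5S (0.07), SDHA (0.10) and UQCRFS1 (0.11) turned at 48 h. The scaling shifted all genes by -0.10 at 6 h and 0.17 at 48 h.

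Without a filter, 4 members had a lower effect at 24 h. Fits of only the groups compared gave 19 higher at 48 h, 4 lower effects at 24 h, and 1 and 2 lower in the controls of 12 and 24 h. The 20 libraries gave 32 higher at 12 h, 4 lower effects at 24 h, 18 higher effects at 48 h, 1 lower in the controls of 12 h and a complex IV median of 0.02 at 48 h. The cause of these differences was not tested, beyond the shift named.

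Leaving out each library gave 23 to 37 higher and 2 to 5 lower (6 h), 7 to 27 and 5 to 9 (12 h), 43 to 57 and 6 to 8 (24 h), and 17 to 43 and 15 to 25 (48 h). Effects ranged over 8 to 20 higher and 1 to 4 lower at 24 h, 5 to 21 and 18 to 25 at 48 h, and controls over 40 to 63 and 0 to 1 at 12 h, 52 to 64 and 1 to 1 at 24 h, and 47 to 63 and 4 to 10 at 48 h, with 36 to 51 joint. COX4I2 and NDUFA4L2, at about 1 CPM or less, are limited by depth, as is every gene in DMF replicate 1 of 48 h.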
